A study of Mus musculus with 15 samples.

Results

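The clustered protocadherin genes of the mouse lie in 3 neighbouring families, Pcdha, Pcdhb and Pcdhg, on chromosome 18. They were taken as all genes of the RefSeq table of GRCm38 on chromosome 18 whose symbols begin with Pcdha, Pcdhb or Pcdhg, a rule that uses names and positions and no measured value. It gave 58 genes of 1325 on chromosome 18 and of 47042 on the autosomes: 14 alpha, 22 beta and 22 gamma genes. Of the 58 members, 57 are listed as protein-coding and 1, Pcdhgb8, as a pseudogene. From the start of Pcdha1 to the shared end of the gamma genes they span chr18:36930285-37841873, a stretch of 911.589 kb.

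Clustered protocadherins are cell surface proteins of the cadherin superfamily that bind the same isoform on a neighbouring cell, and neurons use them to tell their own branches from those of other cells. In the alpha and gamma clusters each variable first exon has a promoter of its own and is spliced to constant exons that all genes of the cluster share, whereas beta genes are encoded in a single exon each. Neurons each use a few of the promoters, and distal enhancers, the protein CTCF and DNA methylation are known to take part in that choice. H3K4me3, H3K9ac and H3K27ac are histone marks of active promoters, with H3K27ac also found at active enhancers, and ATAC-seq finds open chromatin. H3K27me3 is the mark of Polycomb repression, and H3K36me2 is a broad mark found largely over and between active genes.

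All samples came from untreated EL4 cells, a T lymphocyte lymphoma line of strain C57BL/6N, and so from a cell type other than the neurons in which these genes are best known. Of 15 samples, 12 gave a list of called intervals: ChIP-seq of H3K4me3, H3K9ac, H3K27ac, H3K27me3 and H3K36me2 and ATAC-seq, with replicates 1 and 2 of each, and there was no second cell type or condition. The methods call the replicates technical, so the spread between them is at most that of repeated preparations from this line. The input and RNA-seq samples were not used here, so no transcript level stands beside the intervals.

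The lists held between 17519 and 46015 intervals each, with no score or read count, and the depth behind an interval is therefore unknown. The overlap of the replicates, taken as base pairs in both lists over base pairs in at least 1 of them, came over the autosomes to 0.923 for H3K4me3, to 0.869 and 0.865 for H3K9ac and H3K27ac, and to 0.661 for ATAC-seq. It was 0.570 for H3K36me2 and 0.499 for H3K27me3. The replicates of the broad marks H3K27me3 and H3K36me2 thus shared less than those of the narrow marks, and all values below are given for each replicate. No test was run: with 2 values against 2 the smallest two-sided p of an exact permutation test is 1 in 3. As a check of the cell label, 8 of 8 T lineage genes had H3K4me3 at their start in both replicates, as did the housekeeping genes Actb and Gapdh, against 0 of 8 genes of neurons and glia and 0 of 3 of B cells. Of 3 fibroblast genes, the collagen genes Col1a1 and Col1a2 had it as well.

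The stretch held 11 places with an interval of an active mark or of ATAC-seq, and none of them lay in the alpha cluster. A place, or active site, here joins all intervals of H3K4me3, H3K9ac, H3K27ac and ATAC-seq up to 500 bp apart. Of the 11 sites, 3 lay in the beta cluster, 2 between the beta and gamma clusters, 5 in the gamma variable part, from the start of Pcdhga1 to that of Pcdhgc5, and 1 in the gamma 3′ part after it. In 10 of them H3K4me3 was called in both replicates, and 9 were found in at least 6 of the 8 lists.

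**Figure D1:**
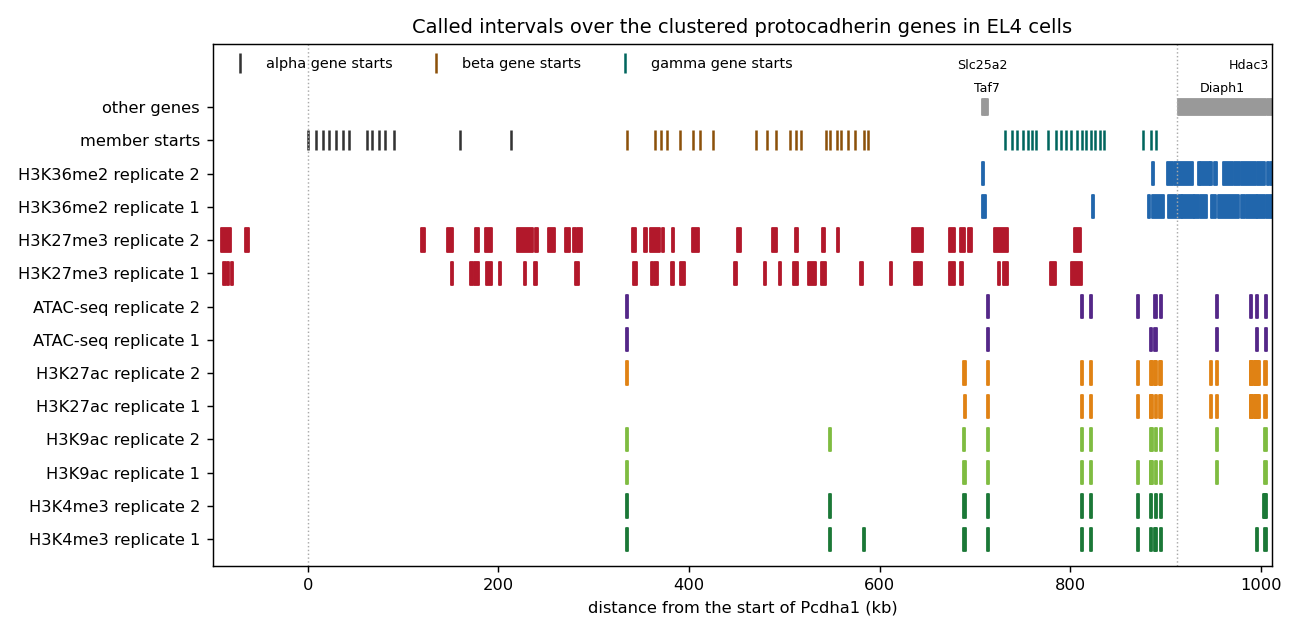
Called intervals of the 12 lists over the clustered protocadherin genes and 100 kb at either side, by distance from the start of Pcdha1 in kb; dotted lines mark the stretch, ticks the member starts, and intervals too narrow to see are drawn at a fixed minimum width. The alpha cluster at the left holds H3K27me3 alone, and H3K36me2 is dense past the right end of the stretch, over Diaph1.

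The share of the stretch covered was above that of the whole chromosome for H3K4me3 in both replicates. For H3K9ac, H3K27ac and ATAC-seq it was below that of the chromosome in both. No share was far from it. H3K4me3 covered 1.06% of its base pairs in replicate 1 and 1.01% in replicate 2 (1.04 ± 0.0380, SD, n = 2), with a mean of 0.829% over chromosome 18 and 1.10% over the autosomes. H3K9ac covered 0.663 and 0.584%, against a mean of 0.686% over the chromosome, and H3K27ac 0.716 and 0.801%, against 0.954%. ATAC-seq intervals took 0.205 and 0.268% of the stretch, against 0.310% of the chromosome. These shares were spread very unevenly along the stretch. In the gamma 3′ part, from the start of Pcdhgc5 to the shared end of the gamma genes, H3K4me3 covered 7.32 and 6.74%, H3K9ac 5.38 and 4.43% and H3K27ac 9.89 and 9.58%. In the beta part H3K4me3 covered 0.520 and 0.439%, and in both parts of the alpha cluster every active mark and ATAC-seq covered 0% in both replicates.

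The broad marks differed from each other in where they lay. H3K27me3 covered 13.0% of the stretch in replicate 1 and 17.5% in replicate 2 (15.2 ± 3.20, SD, n = 2), with means of 15.2% over chromosome 18 and 11.5% over the autosomes, so the stretch as a whole did not stand out for it. H3K36me2 covered 3.08 and 1.59% (2.33 ± 1.05, SD, n = 2), below its mean of 12.8% over the chromosome in both replicates.

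**Figure D2:**
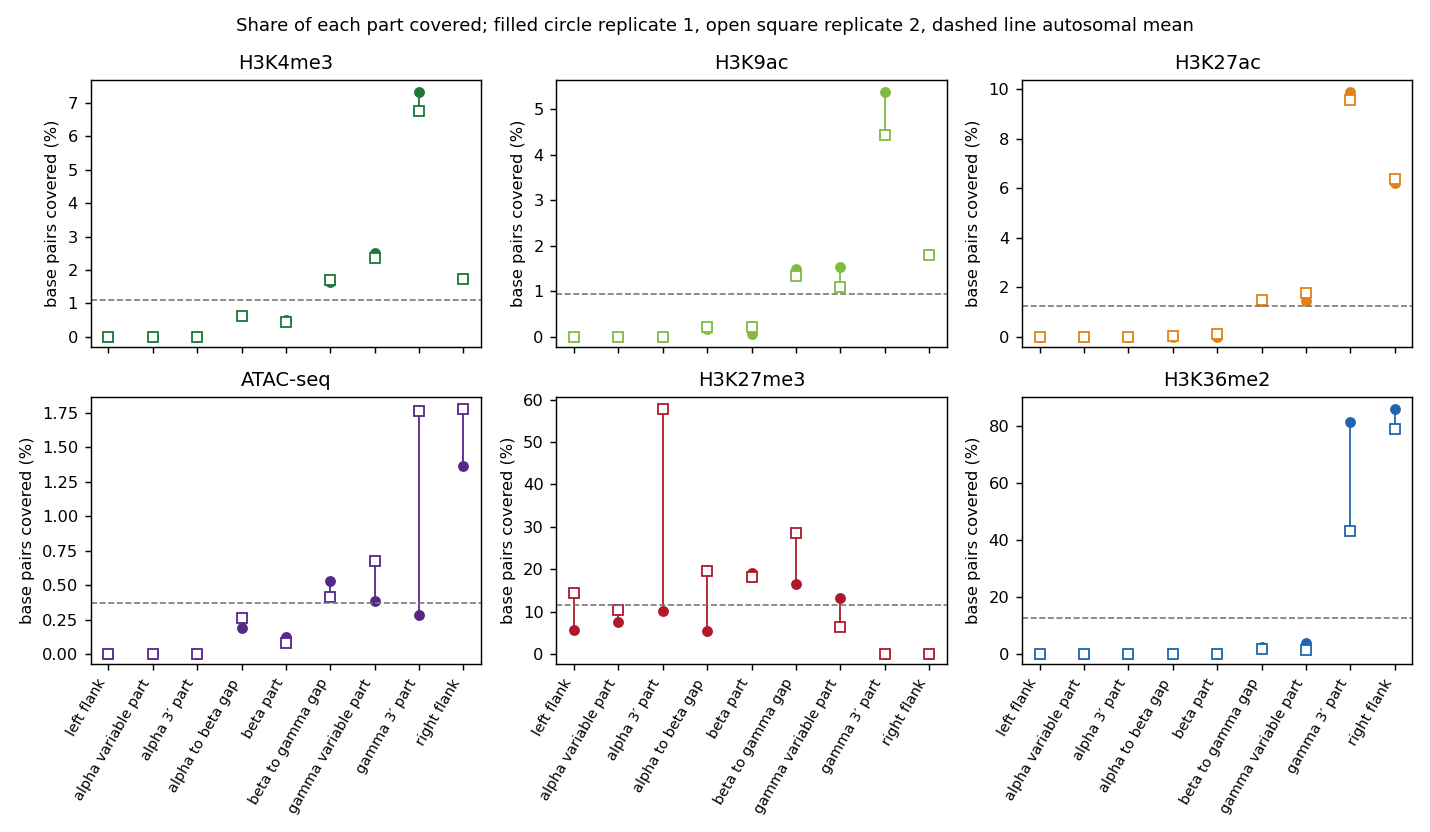
Percent of base pairs covered in each part of the stretch and in its flanks of 100 kb, 1 panel for each assay, with replicate 1 as filled circles, replicate 2 as open squares and the mean over the autosomes as a dashed line. Active marks are at 0% in the alpha parts and highest in the gamma 3′ part, H3K36me2 is above its autosomal mean in the gamma 3′ part and the right flank alone, and the replicates of H3K27me3 are far apart in the alpha 3′ part.

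The alpha cluster carried no interval of an active mark, of ATAC-seq or of H3K36me2 in any replicate. The 14 alpha starts all fell in a gap of 461.37 kb without any active or ATAC-seq interval, which reached from before the cluster to the site at Pcdhb1. Gaps at least as long made up 3.39% of the autosomal gaps between such intervals and held 51.5% of the autosomal base pairs, so a given base pair of the genome lies in a gap of this size about as often as not. For Pcdha1, the first gene of the cluster, the nearest H3K4me3 interval was 127184 bp away in replicate 1 and 127132 bp away in replicate 2. For Pcdhac2, the last, a C-type gene whose product lets serotonergic axons spread out in the brain, it was 120846 and 120855 bp away.

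H3K27me3 was present in the alpha cluster, in its later part. The starts of Pcdha1 to Pcdha12 lay in a stretch of 181.001 kb, at chr18:36868200-37049200, that held no interval of any of the 12 lists. Only 1.03% of the autosomal gaps between intervals of any list were as long, though these held 28.7% of the autosomal base pairs. Downstream of it, H3K27me3 covered 7.68 and 10.3% of the alpha variable part and 10.2 and 57.7% of the alpha 3′ part, which runs from the start of Pcdhac2 to the end of the alpha genes and holds their constant exons. The position of the constant exons themselves was not given. In replicate 2 the alpha 3′ part held an interval of 16799 bp, at chr18:37150201-37166999, where replicate 1 had a single interval of 1399 bp inside it. Replicate 2 also had an interval of 7599 bp at the end of the part, at chr18:37182401-37189999, which no interval of replicate 1 touched.

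By the stretch each alpha gene has to itself, from its start to the next, 3 of 14 genes held H3K27me3 in each replicate. Pcdhac1, a C-type gene that lies before Pcdhac2, had 27.6% of its own stretch covered in replicate 1 and 21.7% in replicate 2. Pcdhac2 had 10.5 and 56.5%, and Pcdha12, the last of the ordinary alpha genes, 2.29 and 14.9%. At their starts, however, no alpha gene was called for H3K27me3: the nearest interval to the start of Pcdhac1 was 7537 and 7337 bp away, and to that of Pcdhac2 11079 and 6523 bp away.

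The beta cluster had 3 active sites over its 22 genes. The site at Pcdhb1, the first beta gene, at chr18:37264524-37265687, lay over the start of the gene and was found in 7 of 8 lists. H3K4me3 there spanned 1164 and 1153 bp, H3K9ac 322 and 452 bp and ATAC-seq 456 and 403 bp in replicates 1 and 2, and H3K27ac was called in replicate 2 alone, over 289 bp. No interval of H3K27me3 or H3K36me2 touched it.

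The site at Pcdhb16, at chr18:37477799-37478258, began 31 bp past the start of the gene. H3K4me3 spanned 443 and 438 bp there, H3K9ac was called over 266 bp in replicate 2 alone, and neither H3K27ac nor ATAC-seq was called. The site at Pcdhb21, at chr18:37513725-37513924, was a single H3K4me3 interval of 200 bp in replicate 1, with nothing in the other 7 lists. Between the sites of Pcdhb1 and Pcdhb16 lay a gap of 212.111 kb without active or ATAC-seq intervals. Gaps at least as long held 65.1% of the autosomal base pairs. The gap held the starts of 15 beta genes. The 14 from Pcdhb2 to Pcdhb15 had no active interval in their window in any list. The other was Pcdhb16 itself, whose site began just past its start. Pcdhb22, the last beta gene, had none in its window either.

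H3K27me3 lay in scattered intervals over the beta cluster and covered 19.0% of it in replicate 1 and 18.2% in replicate 2. These shares were nearly equal, but the intervals were only in part the same: the overlap of the replicates, in base pairs as above, was 0.255. Of 22 beta genes, 5 had H3K27me3 at their start in both replicates, 3 in replicate 1 alone and 5 in replicate 2 alone. Over all genes 10.1% had it in both replicates, and the share in a single replicate was not counted. At Pcdhb2 it covered 3400 and 5001 bp of the window from 3 kb before to 2 kb after the start, and at Pcdhb13 4917 and 2717 bp. At Pcdhb15 it covered 3454 and 2454 bp. These 3 genes had the mark over or within 1 kb of the start in both replicates. Pcdhb3, by contrast, was called in replicate 1 through 201 bp that reach back to the interval over Pcdhb2. Pcdhb14 was called through 343 and 143 bp of the interval over Pcdhb13, so the 5 calls are not 5 separately marked starts. The genes called in replicate 1 alone were Pcdhb5 with 1781 bp of the window covered, Pcdhb10 with 1926 bp and Pcdhb21 with 1548 bp. Those called in replicate 2 alone were Pcdhb6 with 2260 bp, Pcdhb7 with 1698 bp, Pcdhb11 with 3582 bp, Pcdhb17 with 2021 bp and Pcdhb18 with 735 bp. Not all of these are marked starts either. At Pcdhb10 and Pcdhb21 the interval ended 1075 and 1453 bp before the start. Pcdhb7 and Pcdhb18 were called through the intervals over Pcdhb6 and Pcdhb17, which ended 1303 and 2266 bp before their starts. The contrast between the replicates was widest at Pcdhb6, where H3K27me3 covered 0% of its own stretch in replicate 1 and 83.4% in replicate 2.

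H3K36me2 covered none of the beta part. With the alpha cluster this gave a stretch of 836.801 kb without an interval of either H3K36me2 list, at chr18:36800600-37637400, which held 36 starts, all those from Pcdha1 to Pcdhb22. Gaps of this length were 1.30% of the autosomal gaps between H3K36me2 intervals and held 45.7% of the autosomal base pairs.

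Between the beta and gamma clusters lay 2 other genes, Slc25a2, which encodes a mitochondrial carrier of ornithine, and Taf7, a subunit of the general transcription factor TFIID. The active site at Taf7, at chr18:37643154-37645038, was in all 8 lists and was the broadest for H3K4me3 in the stretch, with 1820 and 1828 bp. The single H3K36me2 interval of this gap, with 3599 and 2599 bp, overlapped Slc25a2 in both replicates and reached into Taf7 in replicate 1 alone. The second site of the gap, at chr18:37618870-37619447, lay 42.3 kb before Pcdhga1 and in no listed gene but the 3 predicted transcripts Gm37013, Gm38666 and Gm38667, which run from alpha first exons to the gamma end. It held H3K4me3 of 474 and 561 bp, H3K9ac of 371 and 230 bp and H3K27ac of 200 and 214 bp, without ATAC-seq. All of its 578 bp were also covered by H3K27me3 in replicate 2 and none in replicate 1.

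The gamma cluster held most of the active sites of the stretch, in its later part. Pcdhga1, the first gamma gene, had no active mark at its start. H3K27me3 lay over the start, covered 4775 bp of its window in replicate 1 and all 5001 bp in replicate 2, and ended at the same base in both replicates. Its start and the next 12, up to that of Pcdhga9, fell in a gap of 96.91 kb without an active or ATAC-seq interval, 13 starts in all. Gaps at least as long held 78.5% of the autosomal base pairs. The genes Pcdhga2, Pcdhga3, Pcdhgb1, Pcdhga4, Pcdhgb2 and Pcdhga5, and further on Pcdhgb4 and Pcdhga8, had no interval of any list at their start. Pcdhga6, Pcdhga7 and Pcdhgb5 had H3K27me3 at the start in replicate 1 alone, over 301, 3766 and 1771 bp of the window.

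Pcdhgb6 was the first gamma gene with an active site, at chr18:37741949-37742659, over its start. H3K4me3 spanned 680 and 705 bp, H3K9ac 504 and 515 bp and H3K27ac 431 and 460 bp in replicates 1 and 2, and ATAC-seq was called in replicate 2 alone, over 234 bp. The gene before it, Pcdhga9, had no active mark and the highest H3K27me3 share among the gamma genes, 100% of its own stretch in replicate 1 and 86.5% in replicate 2. In replicate 1 the H3K27me3 interval over Pcdhga9 ran on over the start of Pcdhgb6 and covered 451 bp of the active site. In replicate 2 it ended before the site. Pcdhgb6 was therefore called for H3K27me3 in both replicates, in replicate 2 only through the part of its window that lies before its start.

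**Figure D3:**
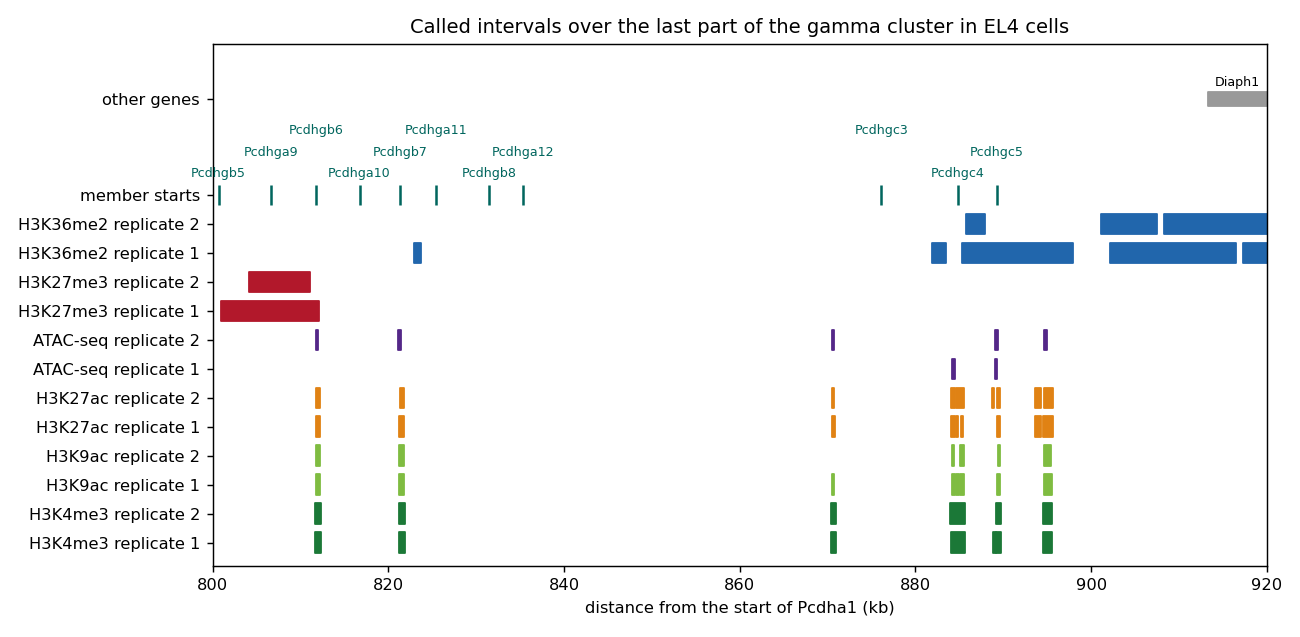
Called intervals of the 12 lists over the later gamma genes, by distance from the start of Pcdha1 in kb, with the gene starts named. The last H3K27me3 interval ends near Pcdhgb6, and active marks recur at Pcdhgb6, Pcdhgb7, Pcdhgc4 and Pcdhgc5. H3K36me2 becomes broad from Pcdhgc4 on in replicate 1, and only past the start of Pcdhgc5 in replicate 2.

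Pcdhgb7 had a site of the same make, at chr18:37751371-37752217. H3K4me3 spanned 703 and 743 bp, H3K9ac 587 and 535 bp and H3K27ac 527 and 501 bp, with ATAC-seq again in replicate 2 alone, over 380 bp. The gene between these, Pcdhga10, and the genes that follow, Pcdhga11, the pseudogene Pcdhgb8 and Pcdhga12, had no active mark at their start. The Pcdhga11, Pcdhgb8 and Pcdhga12 starts fell in 46.695 kb without an interval of any list. Gaps between intervals of any list at least as long held 41.3% of the autosomal base pairs.

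The 3 C-type gamma genes were marked in different ways. Pcdhgc3, whose product is known to promote branching of dendrites, had no interval of any list at its start. The nearest active site lay 5.16 kb before it, at chr18:37800695-37801247, outside the window. It held H3K4me3 of 553 and 503 bp and H3K27ac of 366 and 253 bp, with H3K9ac in replicate 1 and ATAC-seq in replicate 2 alone, 200 bp each. Pcdhgc4, which interneurons need to survive, had the widest H3K4me3 interval among the members, 1644 bp in replicate 1 and 1737 bp in replicate 2. H3K9ac at this site, chr18:37814196-37815942, covered 1136 and 673 bp and H3K27ac 950 and 1303 bp, and ATAC-seq was called in replicate 1 alone, over 408 bp. Pcdhgc5, the last gamma gene, had a site at chr18:37818957-37820048 that was the only one at a member start in all 8 lists. H3K4me3 covered 888 and 497 bp of it, H3K9ac 278 and 202 bp, H3K27ac 347 and 635 bp and ATAC-seq 261 and 357 bp.

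The gamma 3′ part held a further site, 4.33 kb past the start of Pcdhgc5, at chr18:37823874-37825976. Here H3K27ac covered more than H3K4me3 in both replicates, 1861 and 1761 bp against 1131 and 1045 bp. At the sites of Pcdhb1, Pcdhgb6, Pcdhgb7 and Pcdhgc4 the order was the other way in both replicates. At Pcdhgc5 the order differed between the replicates, and at Taf7 H3K27ac also covered slightly more than H3K4me3, 1846 and 1885 bp against 1820 and 1828 bp. H3K9ac covered 924 and 788 bp, and ATAC-seq was called in replicate 2 alone, over 290 bp.

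In the gamma cluster the broad marks lay apart, H3K27me3 before H3K36me2. The last H3K27me3 interval of the stretch ended 305 bp past the start of Pcdhgb6 in replicate 1 and 4463 bp past the start of Pcdhga9 in replicate 2. No H3K27me3 interval of either replicate followed for 235.801 kb, which took in the 8 starts from Pcdhga10 to Pcdhgc5. The gamma 3′ part and the right flank had 0% in both. Gaps between H3K27me3 intervals at least this long held 56.2% of the autosomal base pairs. The next H3K36me2 interval began 10.801 kb on in replicate 1, past the start of Pcdhgb7, and 74.601 kb on in replicate 2, past the start of Pcdhgc4. In neither replicate did a base pair of the stretch or its flanks carry both marks. The share of the autosomes with both was not counted, so nothing is read from this.

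H3K36me2 covered 81.2% of the gamma 3′ part in replicate 1 and 43.3% in replicate 2, and 85.8 and 78.8% of the right flank. Pcdhgc4 had 88.3 and 49.2% of its own stretch covered. Of the active sites in the stretch, 3 overlapped H3K36me2 in replicate 1, those at Pcdhgc4 and Pcdhgc5 and the one past Pcdhgc5, and 0 did in replicate 2. The right flank is mostly Diaph1, a formin that assembles actin filaments, and reaches Hdac3, a histone deacetylase. Both genes had all 3 active marks and ATAC-seq at a gene end in both replicates, as did Taf7, whereas Slc25a2 had H3K36me2 alone. The site at chr18:37933724-37935809, in all 8 lists, holds an end of Diaph1 and lies in the window at the nearer end of Hdac3. A single site can thus give both calls, and Diaph1 and Hdac3 need not be separately marked.

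Counted over all members, the share called for each active mark was below that among genes at large, and the share called for H3K27me3 was near it. A member was called where intervals of both replicates touched the window from 3 kb before to 2 kb after its start, and windows of neighbouring members overlap. H3K4me3 was called at 6 of 58 members (10.3%), against 46.0% of 16457 protein-coding autosomal genes with a known strand. For H3K9ac it was 5 members (8.62%) against 45.3%, and for H3K27ac 4 (6.90%) against 45.7%. ATAC-seq was called at 2 members, Pcdhb1 and Pcdhgc5 (3.45%), against 41.3%. H3K27me3 was called at 8 members (13.8%), against 10.1% of genes, and at a further 11 in a single replicate. H3K36me2 was called at 2 members, Pcdhgc4 and Pcdhgc5 (3.45%), against 25.6%, and in replicate 1 alone at Pcdhgb7 and Pcdhga11.

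**Figure D4:**
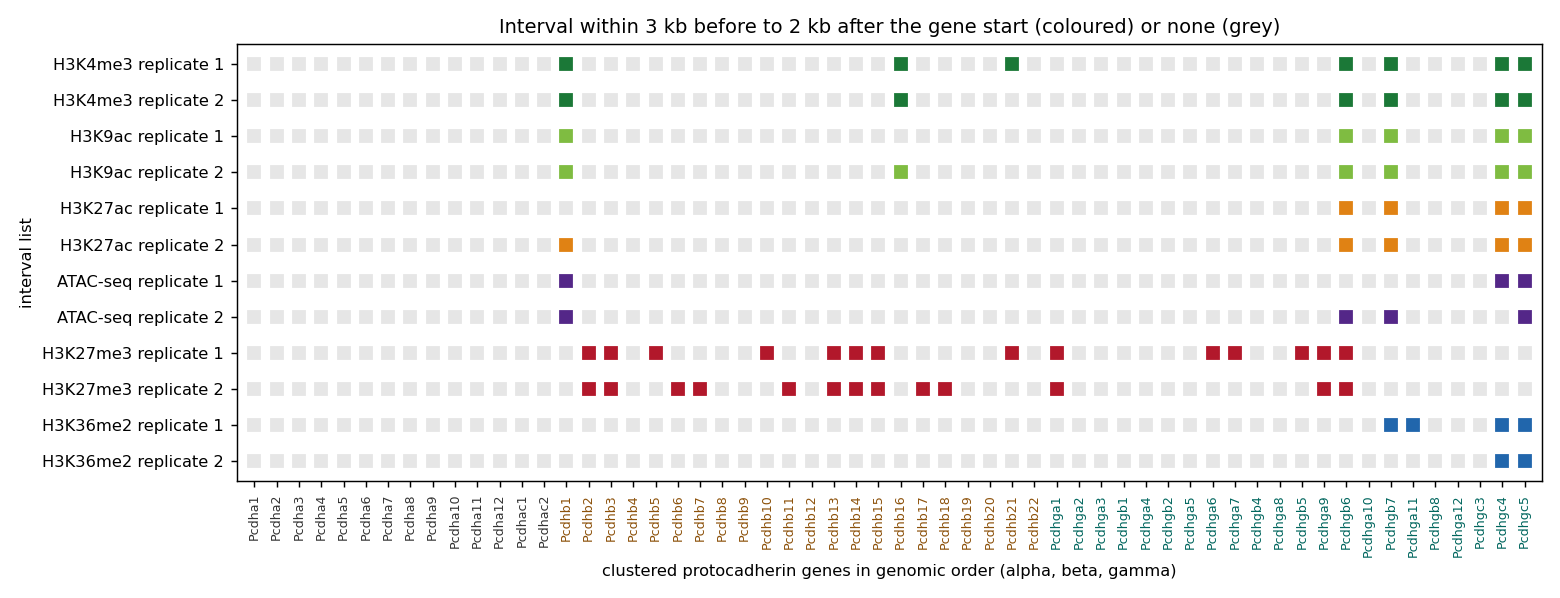
Each of the 58 clustered protocadherin genes (columns, in genomic order, label colour by cluster) against each of the 12 interval lists (rows), coloured where an interval touches the window from 3 kb before to 2 kb after the gene start. The 14 alpha columns are empty, 7 genes have an active mark in at least 1 list, and H3K27me3 lies mostly at beta genes and differs between its replicates.

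In all, 7 members had an active mark or ATAC-seq at their start in at least 1 list, 51 had none, and 33 had no interval of any of the 12 lists. The 33 were all 14 alpha genes, 7 beta genes and 12 gamma genes. The share of all genes with or without an interval in any list was not counted, so nothing is read from the size of these counts. Of the 7 members with an active mark, Pcdhb21 and Pcdhgb6 also had H3K27me3 in their window in at least 1 replicate, and Pcdhgb7, Pcdhgc4 and Pcdhgc5 had H3K36me2. Members of a cluster are known to resemble each other in sequence, and the methods kept unique alignments, so an interval can be missing at a member where reads could not be placed. How much of the stretch can be aligned uniquely was not tested.

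The members with H3K4me3 did not all carry the other active marks. Of 6 such members, 5 had H3K9ac in both replicates, 4 had H3K27ac and 2 had ATAC-seq. Among 7567 genes with H3K4me3 in both replicates H3K9ac had a share of 98.1%, H3K27ac of 97.9% and ATAC-seq of 89.0%. Pcdhb16 had neither H3K27ac nor ATAC-seq in any replicate. The other gaps were of a single replicate: Pcdhb16 for H3K9ac, Pcdhb1 for H3K27ac, and Pcdhgb6, Pcdhgb7 and Pcdhgc4 for ATAC-seq.

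The intervals at the members were also narrow. The widest H3K4me3 interval at the start had a median of 691.5 bp over the 6 members in replicate 1 and 724 bp in replicate 2, against medians of 1953 and 1937 bp over the 7567 genes. All 6 members were below the median of the genes in both replicates, and 5 of 6, all but Pcdhgc4, were below the 10th percentile, 1212 and 1195 bp. H3K9ac intervals at 5 members had medians of 478 and 452 bp, against 1607 and 1594 bp, and H3K27ac intervals at 4 members 418 and 480.5 bp, against 1550 and 1567 bp. Interval width depends on depth and on the caller as well as on the mark, and their part was not tested.

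**Figure D5:**
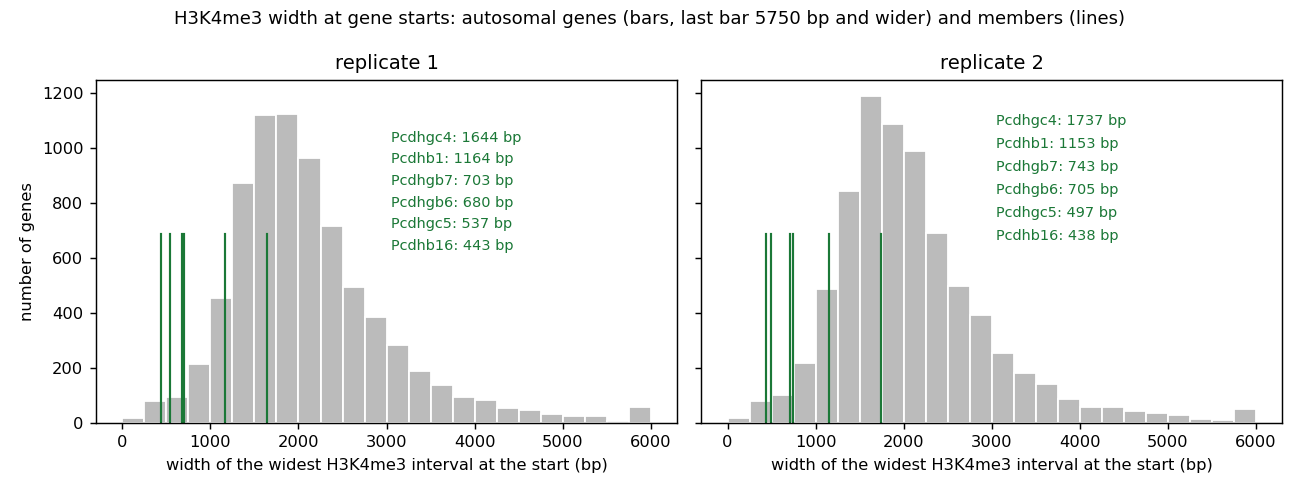
Number of autosomal genes by the width in bp of the widest H3K4me3 interval at their start (grey bars of 250 bp, the last one open to the right), for each replicate, with the 6 members as green lines and their widths printed. All 6 lie to the left of the gene medians of 1953 and 1937 bp.

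Related genes outside the clusters were read in the same way, except that genes without a known strand, 2 of the 10 non-clustered protocadherins and 7 of the 9 classical cadherins, were called at either end and are not directly comparable with the shares over all genes. Of 10 non-clustered protocadherins, which are single genes scattered over the genome, Pcdh7 had all 3 active marks and ATAC-seq in both replicates, and none of the others had any of them in both, where 41.3 to 46.0% of all genes had each. Pcdh1, a gene on the same chromosome, had H3K27me3 in both replicates, where 10.1% of all genes had it. H3K36me2 was called in both replicates at 4 of the 10, Pcdh7, Pcdh10, Pcdh12 and Pcdh18, against 25.6% of all genes. Of 9 classical cadherins none had an active mark or ATAC-seq in both replicates, and Cdh1, the cadherin of epithelia, had H3K27me3 in both. Cdh6 and Cdh13 had H3K27me3 in replicate 2 alone, and 1 of 9 in both is near the 10.1% of all genes. Cdh2 and Cdh13 had H3K36me2 in both replicates, and 2 of 9 is near the 25.6% of all genes.

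Of 16 genes known to regulate the clusters, 3 of them called at either end, 13 had H3K4me3 and H3K9ac in both replicates, 14 had H3K27ac and 11 had ATAC-seq. Over all genes 46.0, 45.3, 45.7 and 41.3% had these. H3K27me3 was called at 0 of the 16, where 10.1% of all genes had it, and nothing is read from that count. Among the 13 were Ctcf, whose product binds at protocadherin promoters and enhancers, the cohesin genes Rad21, Smc1a and Smc3, the cohesin release factor Wapl, and Smchd1, Setdb1 and Dnmt3b, which take part in silencing or DNA methylation of the clusters. H3K36me2 was called in both replicates at 4 of the 16, Ctcf, Nipbl, Pds5a and Dnmt1. This is near the 25.6% of all genes, and nothing is read from it.

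On tiles of 100 kb, each tile inside the stretch held some H3K27me3 in both replicates, whereas 57.9 and 59.2% of autosomal tiles held none. The 8 tiles lay at chr18:37000001-37800000. They leave out the start of the stretch, which lies in the gap around Pcdha1 to Pcdha12 that is empty in all 12 lists. They also leave out its end, which holds Pcdhgc3, Pcdhgc4 and Pcdhgc5. Both ends lack H3K27me3, so the tiles hold a larger share of it than the stretch as a whole. Of these 8 tiles, 3 had no active or ATAC-seq interval, against 60.5% of 23934 autosomal tiles. Single lists gave no common order: H3K27ac in replicate 1 was at 0% in 6 of the 8 tiles, against 66.1% of the autosomal tiles, and H3K4me3 in replicate 1 in 3 of 8, against 66.2%. None of the 8 was without an interval of any list, against 25.7% of the tiles, a count that rests on where the tiles begin. H3K27me3 covered 1.60 to 23.4% of each of the 8 tiles in replicate 1, with a median of 16.5%, and 7.00 to 39.0% in replicate 2, with a median of 14.6%. The autosomal median was 0% in both, and the upper quartile was 12.4 and 15.2%. H3K36me2 was at 0% in 6 and 7 of the 8 tiles in replicates 1 and 2, against 61.0 and 60.7% of the autosomal tiles.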

How the data were processed

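Each deposited list gives the positions of the called intervals of 1 replicate in base pairs and nothing else. Per the methods and the submitters' processing notes, the authors aligned paired-end reads with STAR 2.5 to GRCm38, kept unique alignments, treated duplicates with Picard, and called narrow marks and ATAC-seq with MACS2 and broad marks with Epic, and set ChIP-seq against the input. No score, count or normalization is given, and broad intervals lie on bins of 200 bp. Gene positions are those of RefSeq on GRCm38. The table used gives neither strand nor exons on chromosome 18: alpha and gamma genes were taken to run towards their shared ends, and beta genes the same way. The members and lists of genes were chosen with earlier results of these data known, and the joining distance of 500 bp after seeing the data. Named were the first and last gene of each cluster, C-type genes, members with an active mark, members whose broad marks differed between replicates, other genes in the stretch, and lists of non-clustered protocadherins, classical cadherins, regulators of the clusters and cell type markers. Background genes needed a known strand, and list genes without one were called at either end. Chromosomes were taken from the lowest to the highest position in any list. Counting was checked against bedtools 2.31.1 on simulated lists in 60 comparisons, of which 0 differed. Tools were Python 3.11.15, numpy 2.4.6, pandas 2.3.3 and matplotlib 3.10.9. Tried were other ways to combine the replicates, other limits, windows and overlaps, a minimum width, joined intervals and another gene background.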

Additional observations from a re-analysis of the deposited data

How the results depend on the processing

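The counts rest on whether an interval was called, at unknown depth, and with 2 replicates an SD is a rough guide. No paired analysis was possible because no test was run and each assay is a single group. Joining intervals up to 0 or 1000 bp apart, chosen after seeing the data, gave 12 and 11 active sites. Counts of members at a window of 1 kb at each side or an overlap of at least 200 bp moved past 1.5-fold for H3K36me2 alone, with 1 member at the narrow window.

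Base pairs covered in either replicate were 1.10% of the stretch for H3K4me3, 0.708% for H3K9ac, 0.839% for H3K27ac, 0.343% for ATAC-seq and 22.9% for H3K27me3, and in both replicates 0.975, 0.539, 0.678, 0.131 and 7.57%. Intervals of at least 500 bp gave 0.905, 0.397, 0.510 and 0.0729% for the first 4, and joining within 1000 bp gave 0.839% for H3K27ac. With 100 kb at each side H3K27ac came to 1.19%, ATAC-seq to 0.335% and H3K36me2 to 9.32%, and with 50 kb H3K4me3 to 0.935% and H3K36me2 to 5.85%.

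Taking either replicate gave 5 members with ATAC-seq, 19 with H3K27me3 and 4 with H3K36me2. With a single replicate the counts were 3 to 4 for ATAC-seq, 13 to 14 for H3K27me3 and 2 to 4 for H3K36me2. Intervals of at least 500 bp left 2 members with H3K9ac, 1 with H3K27ac and 0 with ATAC-seq. At least 50% of the own stretch was covered in both replicates at 2 members for H3K27me3 and at 0 for the other 5 assays. With all genes of known strand as background, 35.3% had H3K4me3 and 31.3% ATAC-seq.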

Other observations

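The promoters of Pcdhac2, Pcdhb1, Pcdhgc4 and Pcdhgc5 are known to lack the conserved sequence element, a CTCF-bound motif that most other promoters of the clusters share. This grouping was chosen after the values were seen. Of these 4 members, 3 had H3K4me3 and H3K9ac at their start in both replicates, Pcdhb1, Pcdhgc4 and Pcdhgc5, and the alpha gene Pcdhac2 had neither. Of the other 54 members, 3 had H3K4me3 in both replicates, Pcdhb16, Pcdhgb6 and Pcdhgb7, and 2 had H3K9ac, Pcdhgb6 and Pcdhgb7. H3K27ac was called in both replicates at 2 of the 4, Pcdhgc4 and Pcdhgc5, and at 2 of the other 54, Pcdhgb6 and Pcdhgb7. Both members with ATAC-seq in both replicates, Pcdhb1 and Pcdhgc5, were among the 4, as were both with H3K36me2, Pcdhgc4 and Pcdhgc5. Over all genes 46.0% had H3K4me3, 45.3% H3K9ac, 45.7% H3K27ac, 41.3% ATAC-seq and 25.6% H3K36me2. With 4 members, a difference from these shares cannot be judged. H3K27me3 was called in both replicates at 0 of the 4 and at 8 of the other 54, where 10.1% of all genes had it, so nothing is read from the 0 of 4.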
